A study of Mus musculus with 8 samples.

Results

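The 40 genes described here carry out and control cell division, from the copying of DNA to the separation of daughter cells. They were chosen by symbol, and all 40 were found among the 27998 genes of the deposited count matrices. By role they fall into 14 genes of S phase (9 of DNA replication and 5 of nucleotide supply), 25 genes of G2 and mitosis, and Cdk6, a kinase of G1. Their transcripts were followed through mammary epithelial cells of C57BL/6N mice at 4 stages, each with 2 mice and 1 library per mouse. These were nulliparous mice 8 weeks old (NP), mice at day 14.5 of gestation (G), mice at day 6 of lactation (L), and mice 11 days after natural weaning (post-involution, PI). No treatment or transgene was used, and an age is given for the NP mice only. By vaginal smear NP1, NP2 and PI2 were in oestrus and PI1 in dioestrus. Cells were sorted for EpCAM, an epithelial surface protein, after exclusion of CD31, CD45 and Ter119, and sequenced from the 3′ end on the 10x Chromium system.

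In a dividing cell, the MCM helicase opens the DNA, PCNA holds the polymerase on it, and enzymes such as ribonucleotide reductase supply the nucleotides. Cyclins with CDK1 then drive the cell into mitosis, where aurora kinases, kinetochore proteins and motor proteins of the spindle separate the chromosomes, and the anaphase promoting complex ends the process by marking cyclins for destruction. In the mammary gland, progesterone and prolactin make the epithelium multiply during pregnancy, before it turns to making milk. Most of these transcripts are made and destroyed once per cycle, so that they mark cells in division, whereas others such as Pcna also serve DNA repair in resting cells.

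In total 25009 cells were read in, 24699 of them in clusters C1 to C19. Each mouse had between 1449 and 5736 cells, with 13306760 to 34552742 UMIs (unique molecular identifiers, which mark single captured transcripts). These figures per mouse include the doublet cluster C20, which was left out of the results below. No barcode was shared between libraries among these cells. The clusters are those the authors deposited, here C1 to C11 for luminal and C12 to C14 for basal cells. They were drawn from expression that can include these genes, so that differences between clusters of the same mice are descriptions without a test. The luminal marker Krt18 stood at 6856 to 9178 CPM (counts per 1e6 UMIs of a sum) in luminal cells of NP and PI mice. The basal marker Krt14 lay between 2701 and 5578 CPM in basal cells of all mice, and at 48.0 CPM or less in luminal cells of NP, G and PI mice. The exception was the luminal cells of L mice, with Krt14 at 646 and 518 CPM.

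The promoters of these genes are shown first, because some short sequences were found at different rates in the promoters of S phase and of mitotic members. E2F factors, which switch on genes of S phase, are known to bind TTTGGCGC and TTTCCCGC. The complexes that switch on mitotic genes are known to use TTTGAA, the cell cycle homology element, and CCAAT, the site of NF-Y. A RefSeq promoter (GRCm38.p6, 250 bases before to 50 after the start) was found for 33 of the 40 members, namely 12 of S phase, 20 of G2 and mitosis, and Cdk6. The stretches below are the 150 bases before the start of 3 mitotic and 2 S phase members, 5′ to 3′ on the gene's strand, with matches to the 4 motifs in capitals. On the opposite strand TTTGAA reads TTCAAA and the NF-Y site CCAAT reads ATTGG. Likewise TTTGGCGC reads GCGCCAAA there and TTTCCCGC reads GCGGGAAA. None of the 5 stretches overlaps the annotated span of its own gene, and exons of other genes were not looked up.
Kif11 (chr19:37376232-37376381, plus strand): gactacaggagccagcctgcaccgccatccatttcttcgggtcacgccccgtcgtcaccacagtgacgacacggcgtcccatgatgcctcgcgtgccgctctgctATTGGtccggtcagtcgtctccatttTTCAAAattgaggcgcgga
Top2a (chr11:99024190-99024339, minus strand): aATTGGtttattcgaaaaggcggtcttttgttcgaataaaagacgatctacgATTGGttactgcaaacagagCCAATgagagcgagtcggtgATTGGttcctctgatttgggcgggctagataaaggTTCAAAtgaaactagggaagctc
Mki67 (chr7:135716380-135716529, minus strand): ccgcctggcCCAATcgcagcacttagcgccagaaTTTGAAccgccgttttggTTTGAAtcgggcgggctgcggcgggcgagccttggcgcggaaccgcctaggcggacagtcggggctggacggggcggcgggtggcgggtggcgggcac
Mcm5 (chr8:75109359-75109508, plus strand): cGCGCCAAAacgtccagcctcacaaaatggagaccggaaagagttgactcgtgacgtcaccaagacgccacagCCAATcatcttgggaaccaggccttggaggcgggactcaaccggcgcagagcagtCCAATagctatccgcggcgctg
Mcm6 (chr1:128359706-128359855, minus strand): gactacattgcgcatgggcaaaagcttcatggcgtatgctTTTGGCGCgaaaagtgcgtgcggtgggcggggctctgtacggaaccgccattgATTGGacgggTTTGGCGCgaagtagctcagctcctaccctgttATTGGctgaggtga

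TTTGAA on either strand was found in 14 of 20 promoters of G2 and mitosis members (70.0%), against 1 of 12 S phase members, Mcm2 (8.33%). Over all 27025 genes with a promoter the share was 20.2%. CCAAT was common to both groups, with 18 of 20 (90.0%) and 9 of 12 (75%), against 41.1% of all genes. TTTGGCGC occurred in Mcm3, Mcm5 and Mcm6 (3 of 12, or 25%) and TTTCCCGC in Mcm3 and Mcm7 (2 of 12, or 16.7%). Over all genes these shares were 0.585% and 1.24%, and no G2 and mitosis member held either motif. The promoter of Cdk6 held none of the 4 motifs. A match is a description of the letters and not evidence of binding.

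Over the 33 sums of epithelial cells (single clusters of single mice that held 20 cells or more), the members followed each other to different degrees. The correlation of each member with the sum of the others, on the log2 scale, had a median r of 0.886. It was 0.916 for the members of G2 and mitosis and 0.750 for those of S phase. Kif11 (a spindle motor, r = 0.957), Aurkb (a kinase of chromosome segregation, 0.951) and Ccna2 (cyclin A2, 0.944) were most like the rest. The least like were Aurka (0.385), Pcna (0.389), Cdk6 (0.422) and Mcm6 (0.493). These points share mice and depth, and the coefficients are given as a description.

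**Figure D1:**
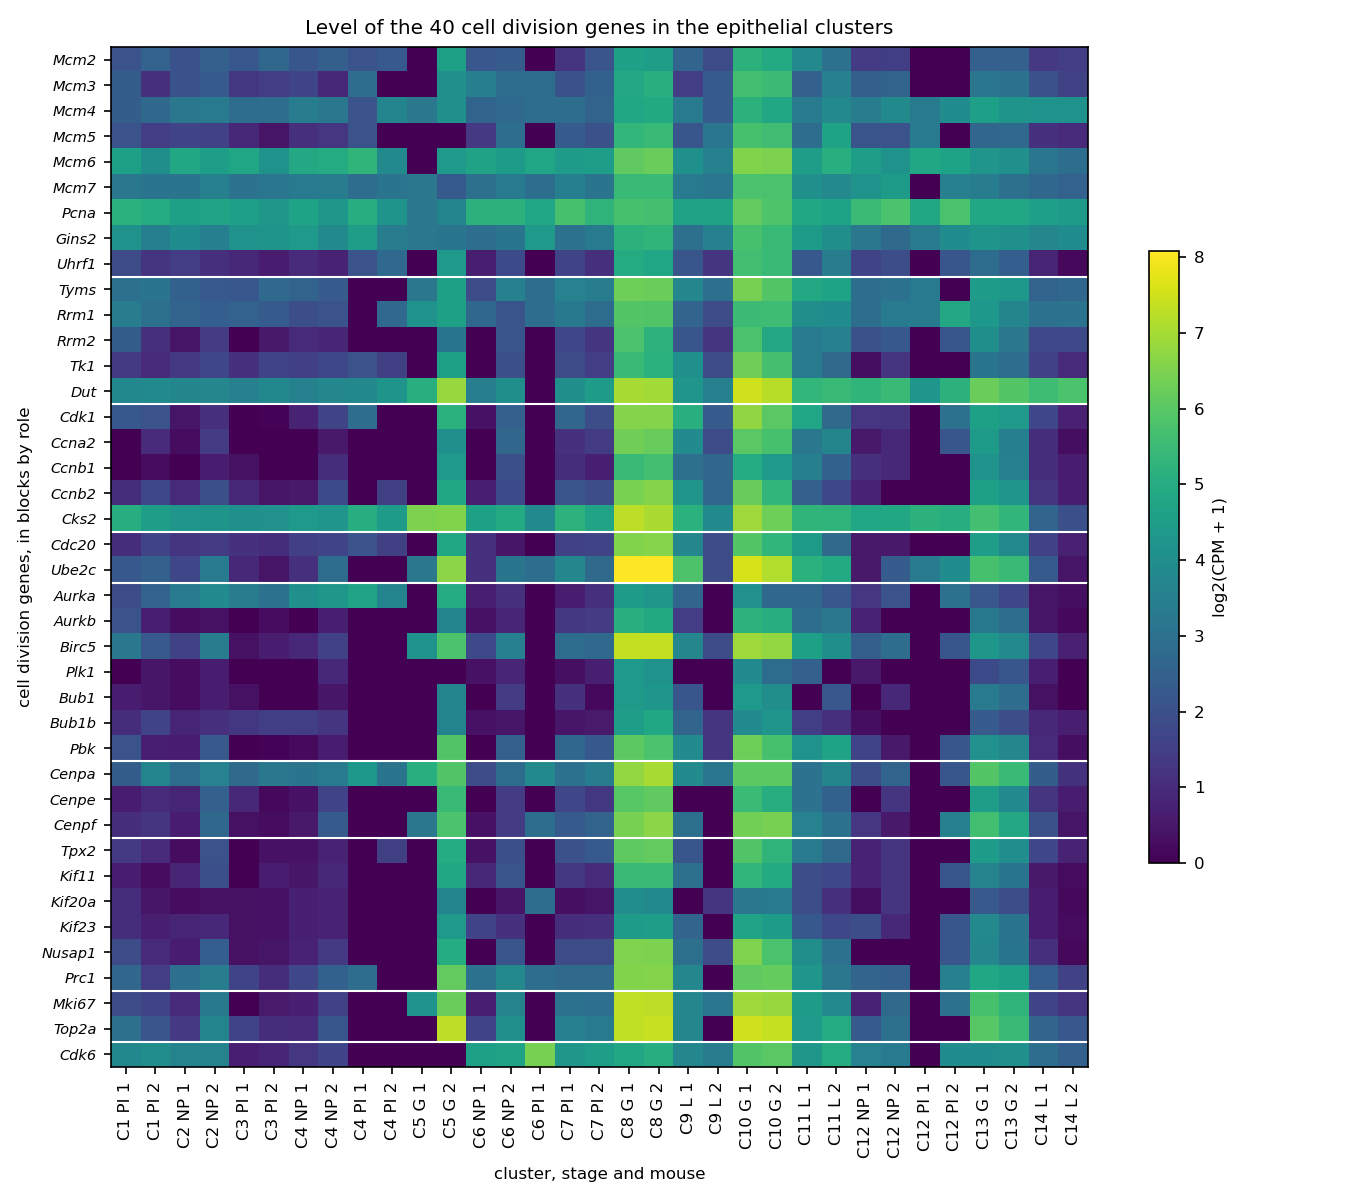
Level of each of the 40 members, as log2(CPM + 1) by colour, in the 33 sums of epithelial cells, with members in rows in blocks by role and clusters with stage and mouse in columns. The columns of C8 and C10 in G mice are bright for nearly all members, C13 in G mice is intermediate, and Pcna, Mcm6, Dut and Cks2 are visible in most columns.

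The members were high in the gestation clusters of both layers. Summed over the 40 members, the level was 2795 and 2800 CPM in the alveolar cells C8 of G1 and G2, and 2707 and 2180 CPM in the alveolar progenitors C10. In the basal cluster C13 of the same mice it was 870.5 and 656.8 CPM. The differentiated hormone-sensing cells C4 of NP mice, taken as cells that rarely divide, held 178.4 and 198.5 CPM. Nulliparous luminal progenitors (C6) lay near this at 182.6 and 291.1 CPM, and the lactation basal cluster C14 at 188.9 and 161.4 CPM. The ratio of the G2 and mitosis sum to the S phase sum differed too. In C8 the G2 and mitosis members together had 2.89 and 3.03 times the level of the S phase members, in C10 1.84 and 1.75 times, and in C4 of NP mice 0.471 and 0.782 times. The S phase sum in C4 was 120.3 and 110.2 CPM. Of this, Mcm6 made up 28.5 and 30.3 CPM and Pcna 24.8 and 18.5 CPM, in cells taken to rarely divide. The lists also differ in length, so that these ratios give no balance of phases.

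Counting cells rather than transcripts also set C8 and C10 above C13. By cells, the shares of C13 also lay above those of the other epithelial clusters. The nearest was C5 of G2 (7.317% of 41 cells), with an interval of 1.535 to 19.92% that includes both C13 shares. By transcripts, C5 of G2 stood above C13 at 1374 CPM, and C5 of G1 below it at 259.7 CPM. Each cell was thinned to 2000 UMIs, and a cell with UMIs of at least 3 members was counted as division-positive. In C8 this held for 989 of 1926 cells in G1 (51.35%, exact 95% interval 49.09 to 53.6%) and 890 of 1818 cells in G2 (48.95%, 46.63 to 51.28%), or 50.15% ± 1.70 (SD, n = 2). In C10 the shares were 56.18% and 53.97%, or 55.08% ± 1.56 (SD, n = 2). C13 reached 15.81% and 10.77%, or 13.29% ± 3.56 (SD, n = 2). The background in C4 of NP mice was 0.618% and 0.413%, although these cells were as deep as those of C8 (median 10163 and 10309 UMIs against 10900.5 and 8676.5). Without thinning, the shares were 79.5% and 73.1% in C8 and 30.0% and 23.3% in C4. No permutation test of 2 mice against 2 can go below p = 0.3333, and no test was made of these shares.

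Of all division-positive cells in the G mice (1175 and 1080), C8 held 84.2% and 82.4%, C13 7.06% and 5.93%, and C10 4.26% and 6.30%. In C8, 57.8% and 52.9% of the division-positive cells had at least 3 members of G2 and mitosis but fewer than 3 of S phase. Of these C8 cells, 9.10% and 11.2% had at least 3 of S phase alone, and 21.2% and 20.3% had both. The list of G2 and mitosis is the longer one (25 against 14 genes), so that these classes give no balance of phases. The transcripts most often seen in a division-positive C8 cell were Ube2c (45.7% and 43.6%), Mki67 (39.8% and 35.2%), Birc5 (38.7% and 36.1%) and Top2a (34.9% and 36.5%).

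Other epithelial shares were low. Post-involution luminal progenitors (C7) had 3.28% and 2.36%, and nulliparous ones (C6) 1.08% and 2.53%. The hormone-sensing progenitors had 0.377% and 2.96% in NP mice (C2) and 2.80% and 0.779% in PI mice (C1). In lactation the alveolar progenitors C11 had 4.38% and 5.62%, and the milk-secreting cells C9 4.88% in L1 and 0 of 47 cells in L2, which allows a share of up to 6.38%. Basal cells of NP mice (C12) had 1.19% and 1.77%, on 6 and 5 cells. The basal cells C14 of L mice had 0.819% and 0.389%. This was near the background in C4 of NP mice and in C3 of PI mice (0.485% and 0.282%). Of these division-positive cells, 12 of 36 and 1 of 12 in C14 had UMIs of 5 or more members. In C4 of NP mice it was 0 of 6 and 2 of 5, and in C3 of PI mice 0 of 2 and 1 of 7. The shares of C11 rest on 6 and 5 cells, and those of C7 on 27 and 26. Intervals cover counting error only.

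**Figure D2:**
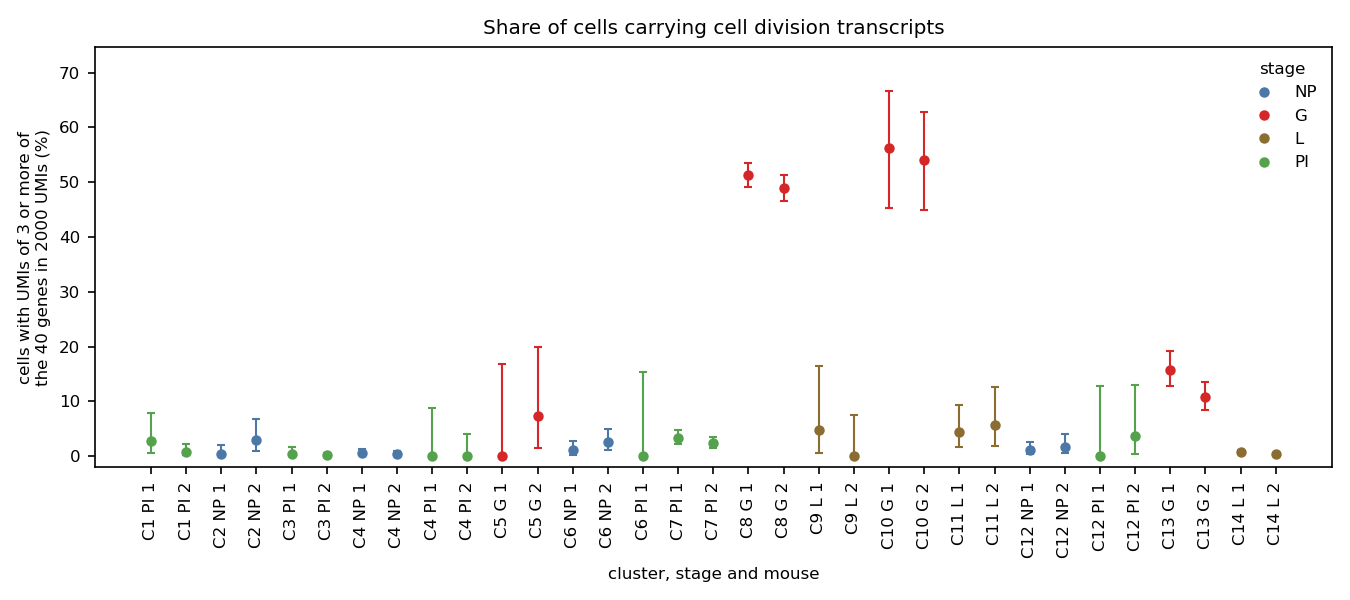
Share of cells with UMIs of 3 or more of the 40 members among 2000 UMIs (y axis, percent), by cluster, stage and mouse (x axis), with exact 95% binomial intervals as bars and stage by colour. C8 and C10 of the G mice lie between 48.95% and 56.18%, C13 at 15.81% and 10.77%, and all other epithelial sums at 7.32% or less.

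The first comparison asks how the luminal layer changes from the nulliparous gland to pregnancy. Counts of C1 to C11 were summed per mouse and tested with edgeR's quasi-likelihood test over all genes. All 40 members rose, whereas 33.8% of the 13342 genes tested were called higher. Members near 0 in NP mice passed the low-count filter through the G mice and could hardly be called lower. The median log2 fold change was 4.81 over the members, 3.52 over those of S phase and 5.77 over those of G2 and mitosis, against -0.01 over all genes. A sum cannot tell more dividing cells from more transcript per dividing cell, and 1926 of 2037 and 1818 of 1988 luminal cells of the G mice were C8.

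Among cyclins and their partners, Ccna2, which acts in S phase and at the entry to mitosis, rose most. It stood at 0.047 and 1.27 CPM in NP1 and NP2 and at 78.3 and 70.9 CPM in G1 and G2 (log2 fold change 6.92, SE 0.43, edgeR adjusted p = 6.44e-07). Ccnb1, a cyclin of mitosis, went from 0 and 1.22 CPM to 42.4 and 46.4 CPM (6.27, SE 0.47). Cdk1, the kinase it activates, went from 0.564 and 2.25 CPM to 95.2 and 91.7 CPM (6.14, SE 0.33). Cks2, a small partner of CDK1, was already present in nulliparous cells at 19.6 and 19 CPM and reached 152.5 and 128.5 CPM (2.95, SE 0.14). For each of these genes both G mice lay above both NP mice.

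Of the members that act during mitosis itself, those shown rose by 3.98 to 6.57 on the log2 scale. Ube2c, the ubiquitin-conjugating enzyme of the anaphase promoting complex, went from 1.46 and 6.90 CPM to 261.3 and 259.1 CPM (6.04, SE 0.46, edgeR adjusted p = 2.41e-06). Birc5, or survivin, which targets Aurora B to the centromere, went from 1.36 and 4.21 CPM to 158.0 and 154.8 CPM (5.89, SE 0.33). Its partner kinase Aurkb went from 0.094 and 0.587 CPM to 32.2 and 28.8 CPM (6.57, SE 0.33). The mitotic kinase Pbk rose by 6.15 (SE 0.38), the checkpoint kinase Bub1 by 5.94 (SE 0.40) and the spindle protein Tpx2 by 6.36 (SE 0.33), all on the log2 scale. Nusap1, which binds spindle microtubules, rose by 6.06 (SE 0.33) and Prc1, which bundles them at the midzone, by 4.18 (SE 0.19). Cenpa, the histone of the centromere, was at 6.44 and 8.91 CPM and reached 105.4 and 123.9 CPM (3.98, SE 0.17). Mki67, which coats mitotic chromosomes and is the usual proliferation marker, went from 0.705 and 4.21 CPM to 155.2 and 151.1 CPM (6.05, SE 0.44). Top2a, which untangles DNA, went from 1.32 and 6.31 CPM to 158.3 and 165.9 CPM (5.49, SE 0.44).

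Members of S phase fell into a wide range. Rrm2, a subunit of ribonucleotide reductase, started at 0.705 and 1.27 CPM and reached 54.3 and 35.4 CPM (5.60, SE 0.32), and Uhrf1, which maintains DNA methylation after replication, rose by 4.86 (SE 0.18). Dut, which removes dUTP, went from 10.9 and 12.6 CPM to 130.4 and 123.8 CPM (3.51, SE 0.14). Mcm6 was at 27.8 and 27.6 CPM in nulliparous cells and at 69.3 and 74.3 CPM in gestation (1.46, SE 0.11). Pcna went from 26.1 and 21.7 CPM to 52.6 and 51.3 CPM (1.2, SE 0.11, edgeR adjusted p = 1.12e-05). Cdk6, which phosphorylates the retinoblastoma protein in G1, went from 7.19 and 6.21 CPM to 28.5 and 33.2 CPM (2.28, SE 0.13). The smallest change was that of Aurka, a kinase of spindle poles, from 11.5 and 15.7 CPM to 20.9 and 17.5 CPM (0.58, SE 0.18, edgeR adjusted p = 0.0181), and its call was lost without G1, without NP1 or without cells of high UMI count.

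The nulliparous mice differed from each other. NP2 was higher than NP1 for most G2 and mitosis members, with a summed luminal level of 98.7 against 54.9 CPM, whereas S phase members summed to 113.4 CPM in NP2 and 118.1 CPM in NP1. Both mice were in oestrus.

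**Figure D3:**
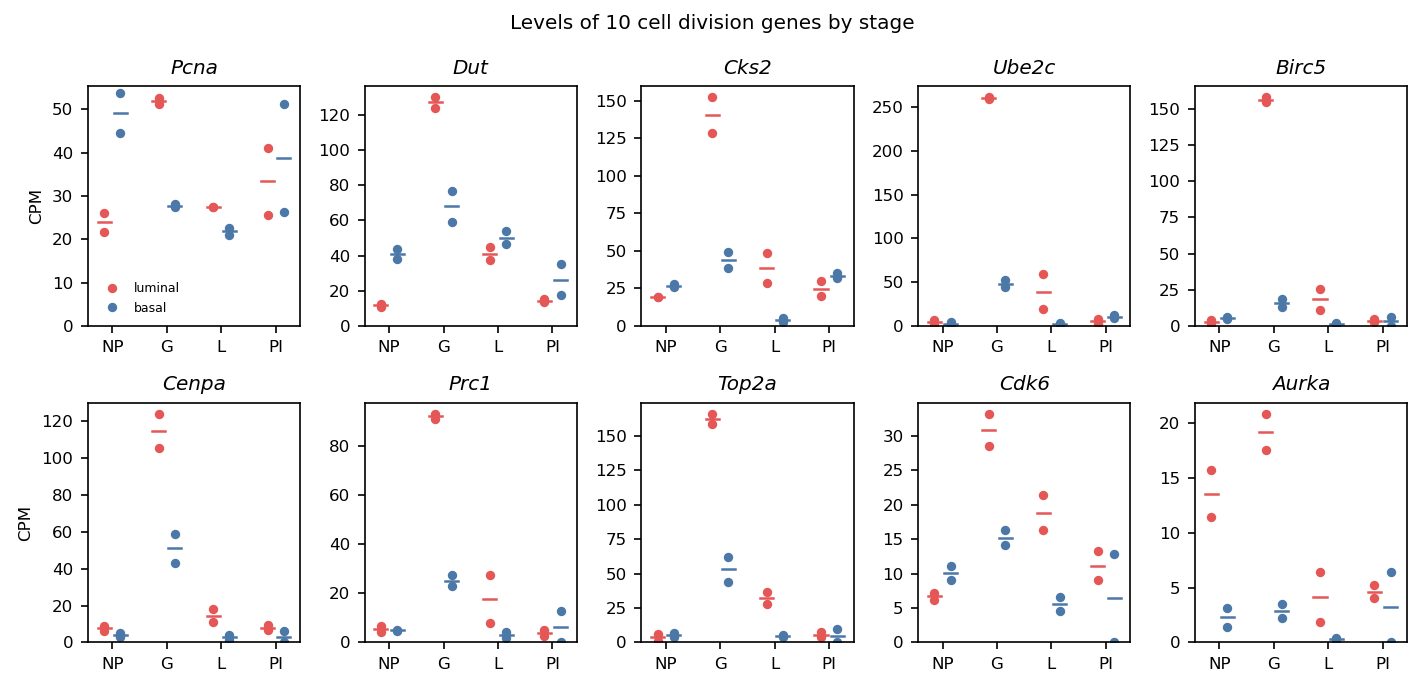
Level in CPM (y axes, each from 0) of 10 members at the 4 stages (x axes), in luminal (red) and basal (blue) sums, with 1 point per mouse and a line at the mean of 2 mice. Both G mice stand above all other luminal points in all 10 panels, whereas in basal cells Pcna is lower in G than in NP mice.

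The same question was asked of the basal layer. There 34 of the 40 members rose and 2 fell, while 24.3% of the 11086 genes tested were called higher and 21.9% lower. The median log2 fold change was 2.83 over the members, and 24 of 25 members of G2 and mitosis but only 9 of 14 members of S phase rose. Nusap1 had no UMI in NP mice and 12.6 and 7.86 CPM in G mice, at least 21.7-fold higher against a floor of 3 UMIs over both NP sums. Ccnb2, a mitotic cyclin, went from 0.705 and 0 CPM to 23.1 and 18 CPM (5.46, SE 0.50, edgeR adjusted p = 3.88e-07). Cdc20, the activator of the anaphase promoting complex, went from 0.470 and 0.455 CPM to 21.4 and 13.2 CPM (5.21, SE 0.52). Cenpf, of the outer kinetochore, went from 1.41 and 0.455 CPM to 48.3 and 28.1 CPM (5.19, SE 0.43), and Cenpe, a kinetochore motor, from 0 and 1.37 CPM to 21.9 and 13.5 CPM (5.22, SE 0.61).

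Ube2c reached 52.3 and 44.0 CPM in basal cells of G mice, from 0.470 and 4.10 CPM (4.86, SE 0.39). Ccna2 rose by 4.66 (SE 0.56), Bub1 by 4.57 (SE 0.72), the checkpoint kinase Bub1b by 4.30 (SE 0.84) and Tpx2 by 4.29 (SE 0.44). Cenpa went from 2.82 and 5.01 CPM to 58.9 and 43.1 CPM (3.90, SE 0.29), Mki67 from 0.705 and 5.92 CPM to 52.1 and 36.6 CPM (4.19, SE 0.42), and Top2a from 4.0 and 6.83 CPM to 62.4 and 43.5 CPM (3.48, SE 0.28). Prc1 rose by 2.43 (SE 0.27), and Birc5 by less, from 4.47 and 6.37 CPM to 18.6 and 13.2 CPM (1.70, SE 0.32). In all of these both G mice lay above both NP mice.

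Among the S phase members of basal cells, Tk1, of thymidine salvage, rose from 0.235 and 1.37 CPM to 7.80 and 6.73 CPM (3.55, SE 0.60), Rrm2 by 1.91 (SE 0.39) and Tyms, of thymidylate synthesis, by 1.60 (SE 0.26). Pcna fell from 44.4 and 53.7 CPM to 28.2 and 27.4 CPM (-0.72, SE 0.18, edgeR adjusted p = 0.0035). Mcm7, of the replicative helicase, fell from 16.2 and 20.0 CPM to 9.56 and 7.18 CPM (-1.0, SE 0.27, edgeR adjusted p = 0.00643), a call that DESeq2 did not make. Mcm5 (0.89, SE 0.40), Mcm3 (0.82, SE 0.35), Mcm6 (-0.11, SE 0.22) and Aurka (0.56, SE 0.55) did not pass the test. Dut rose from 38.1 and 43.7 CPM to 77 and 59.0 CPM (0.84, SE 0.17), and Cks2 from 26.1 and 27.8 CPM to 49.3 and 38.4 CPM (0.80, SE 0.19). Cdk6 went from 11.1 and 9.10 CPM to 14.1 and 16.4 CPM (0.66, SE 0.25, edgeR adjusted p = 0.0436), a call lost in DESeq2, with library totals, without G2, NP1 or NP2, and without cells of high UMI count.

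The milk protein Csn2, at 31080 and 20280 CPM in C8, was taken as a guide to free RNA from broken cells. In C13 of the same mice it stood at 634.7 and 353.7 CPM, or 2.04% and 1.74% of the C8 level. The members of G2 and mitosis in C13 lay at a median of 26.7% and 20.5% of their C8 level, with the lowest, Birc5, at 11.5% and 8.18%. Those of S phase lay at a median of 26.9% and 21.4%. The origin of the Csn2 in C13, and the part of free RNA in the member levels, was not tested.

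Whether the change from NP to G differed between the layers was tested as an interaction, with the mouse as a term. The luminal change was larger for 25 of the 40 members and smaller for none, while 22.8% of the 13692 genes tested were called higher and 23.4% lower. The median difference was 2.14 on the log2 scale over the members and -0.01 over all genes. It passed for 11 of 14 members of S phase, 13 of 25 of G2 and mitosis, and Cdk6. Birc5 differed most (4.36, SE 0.42, edgeR adjusted p = 4.69e-08), followed by Mcm5 (3.74, SE 0.47), Rrm2 (3.74, SE 0.47) and Uhrf1 (3.55, SE 0.55). Mcm7 (3.35, SE 0.26), Pbk (3.07, SE 0.83), Rrm1 (2.92, SE 0.34), Ccnb1 (2.91, SE 1.04), Dut (2.67, SE 0.17) and Mcm3 (2.62, SE 0.41) followed. Pcna, which fell in the basal and rose in the luminal layer, differed by 1.88 (SE 0.19). Members without a detectable difference included Cenpa (0.12, SE 0.38), Gins2 of the replicative helicase (0.14, SE 0.27), Cdc20 (0.49, SE 0.97) and Cenpf (0.62, SE 0.92), and for the last 2 the errors are large.

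**Figure D4:**
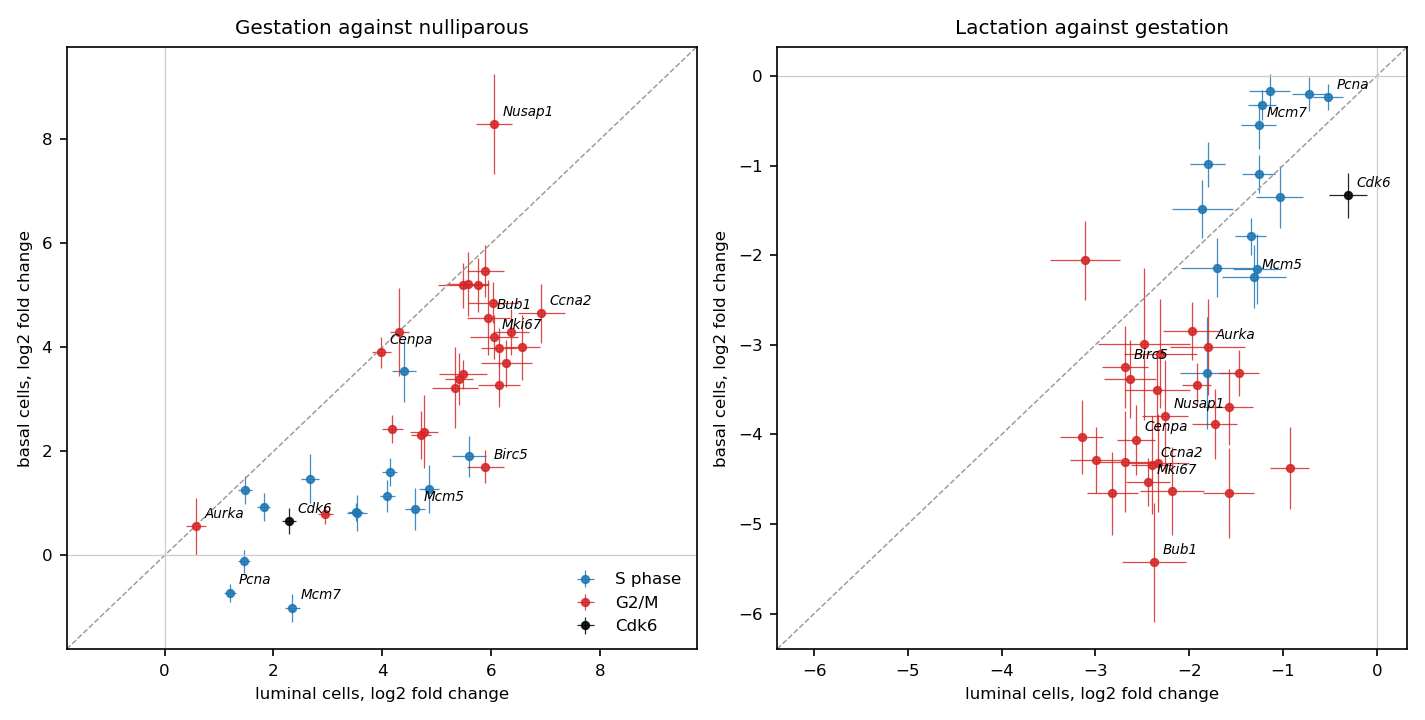
Log2 fold change of each member in luminal (x axis) and basal (y axis) sums, from NP to G (left) and from G to L (right), with bars of 1 SE and a dashed line where both changes are equal. On the left nearly all points lie below the line, and Pcna and Mcm7 lie below 0 in basal cells; the basal value of Nusap1, with no UMI in NP mice, is a fitted value and no bound.

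Clusters of the secretory arm were compared next. Alveolar progenitors of G mice (C10) were set against luminal progenitors of NP mice (C6), where cluster and stage cannot be told apart. All 40 members were higher in C10, against 24.3% of the 9564 genes tested, with a median of 4.24. Members with few UMIs in C6, such as Aurkb (1 and 2) and Cdc20 (4 and 1), passed the low-count filter through C10. They could hardly be called lower, so the count of 40 is partly fixed by the filter. Cenpf went from 0.302 and 1.66 CPM to 81.1 and 84.2 CPM (6.46, SE 0.36, edgeR adjusted p = 1.86e-07). Aurkb (5.86), Cdc20 (5.70), Tk1 (5.64), Cenpe (5.62), Nusap1 (5.60), Ube2c (5.32), Bub1b (5.27), the mitotic kinesin Kif20a (5.26) and Cdk1 (5.25) completed the 10 largest. Top2a went from 2.11 and 15.8 CPM to 180.6 and 163.5 CPM (4.40, SE 0.39). Mki67 went from 0.604 and 11.2 CPM to 119.4 and 112.3 CPM (4.46, SE 0.45). Aurka went from 0.604 and 1.24 CPM to 16.1 and 5.61 CPM (3.48, SE 0.67) and thus, unlike in the luminal layer as a whole, started near 0. In nulliparous mice Aurka was found in the hormone-sensing cells, at 15.5 and 18.5 CPM in C4. Cdk6 had the opposite pattern, with 23.2 and 24.1 CPM in C6 against 1.42 and 2.07 CPM in C4, and reached 58.2 and 63.0 CPM in C10 (1.35, SE 0.18). Pcna rose least, from 35.6 and 35.3 CPM to 68.9 and 57.4 CPM (0.81, SE 0.17).

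Differentiated hormone-sensing cells were few in G mice, with 20 cells of C5 in G1 and 41 in G2. Of 26 members tested against C4 of NP mice, 16 were called higher, against 8.04% of all genes, but the G mice disagreed. Top2a had no UMI in G1 and 154.8 CPM in G2, and Mki67 16.2 and 73.5 CPM. In G2, 3 of 41 cells were division-positive, and in G1 0 of 20, which allows a share of up to 15%. Without G2 a single member was called, and 8 members with no UMI in G1 had fitted changes below 0. Cks2, at 89.3 and 92.9 CPM against 19.1 and 17.6 CPM, was higher in both mice (2.08, SE 0.33).

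In lactation the members fell in the luminal layer. Of 40 members, 39 were lower in L than in G mice, against 16.5% of the 12262 genes tested, with a median log2 fold change of -1.83. The median was -1.27 for S phase and -2.34 for G2 and mitosis. Cenpe fell to 6.43 and 4.27 CPM (-3.15, SE 0.23, edgeR adjusted p = 1.61e-05), Bub1b to 2.92 and 1.22 CPM (-3.11, SE 0.37), and Ccnb2 to 12.3 and 4.27 CPM (-3.00, SE 0.27). Kif11 (-2.82), Cenpf (-2.69), Birc5 (-2.69), Tpx2 (-2.63), Cenpa (-2.57), the mitotic kinase Plk1 (-2.48) and Mki67 (-2.44) were the next. Ube2c fell to 59.6 and 18.9 CPM (-2.33, SE 0.32) and Top2a to 36.8 and 28.1 CPM (-1.92, SE 0.15). Prc1, Cks2 and Dut fell by 1.97, 1.47 and 1.23 on the log2 scale. Pcna changed little, to 27.5 and 27.4 CPM (-0.52, SE 0.16, edgeR adjusted p = 0.0321), and lost its call in DESeq2 and without G1, G2 or L1. Cdk6, at 16.4 and 21.3 CPM, did not pass (-0.31, SE 0.20, edgeR adjusted p = 0.274). Scaled by library totals, all 40 members were lower, and the median of all genes moved from -0.03 to -0.43.

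Only 190 and 142 luminal cells were sequenced from L mice, and milk proteins made up 195600 and 219800 CPM of their sums. RNA of basal cells moved with this stage too. In C11 the basal markers Krt14 and Acta2 stood at 17.5% and 13.8% of their level in the basal cluster C14 in L1 and at 14.1% and 10.7% in L2, and in C9 at 6.27% and 6.23% in L1 and 4.01% and 2.73% in L2. Their part in the fall of the members was not tested.

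Within the secretory arm, alveolar progenitors of L mice (C11) had lower levels than those of G mice (C10) for all 38 members tested, against 12.9% of 8398 genes. The largest falls were those of Ccnb2 (-3.60), Kif11 (-3.38), Bub1 (-3.06), Bub1b (-2.97), Cenpf (-2.84), Tk1 (-2.75), Kif23 (-2.56), Uhrf1 (-2.54), Top2a (-2.50) and Cenpa (-2.49). Some of these rest on few UMIs in C11 of L1 and L2, such as Bub1 (0 and 3) and Bub1b (2 and 1). Ube2c was at 35.2 and 29.4 CPM, and Pcna fell least (-0.98, SE 0.24). DESeq2 called 22 of them. In milk-secreting cells (C9) against the gestation cells C8, 35 of 40 members were lower, against 9.16% of 11858 genes. Plk1 and Cenpe had no UMI in C9, and were at least 8.05-fold and 28.3-fold lower against a floor of 3 UMIs over both sums. Tpx2 (-4.57), Aurkb (-4.42), Top2a (-4.02), Cenpf (-4.02) and Birc5 (-3.64) came next, Top2a going from 158.0 and 166.4 CPM to 12.2 and 0 CPM. Their fitted values rest on few UMIs in C9 of L1 and L2, such as Tpx2 (2 and 0), Aurkb (1 and 0) and Cenpf (4 and 0). Pcna, Cdk6, Mcm4, Tk1 and Aurka did not pass the test. C9 held 42 and 47 cells, and without L2 25 members were called.

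In basal cells of L mice 35 of 40 members were lower than in G mice, against 24% of 12720 genes, with a median of -3.28. The G2 and mitosis members summed to 47.8 and 18.2 CPM in L mice against 602.6 and 428.0 CPM in G mice, and those of S phase to 134.5 and 138.6 CPM against 261.8 and 209.6 CPM. Bub1 fell from 9.05 and 6.51 CPM to 0.284 and 0 CPM (-5.43, SE 0.66, edgeR adjusted p = 0.000334). Kif11 fell by 4.66, Aurkb by 4.66, Kif23 by 4.63, Pbk by 4.38, Ccna2 by 4.34, Cenpf by 4.31 and Ccnb2 by 4.29 on the log2 scale. Mki67 fell to 2.13 and 1.32 CPM (-4.53, SE 0.27) and Ube2c to 3.83 and 0.361 CPM (-4.32, SE 0.55). Birc5 (-3.25), Cenpa (-4.06), Prc1 (-2.85), Top2a (-3.45), Cks2 (-3.32) and Cdk6 (-1.33) fell too. The 5 that did not pass are all of S phase, namely Mcm4, Gins2, Pcna (22.7 and 21.0 CPM), Dut (46.4 and 54.1 CPM) and Mcm7. Whether the fall differed between the layers was not tested.

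Mice after a full pregnancy cycle were compared with nulliparous ones as PI against NP, where few members passed the test. No age is given for the PI mice, so that parity and age cannot be told apart in this comparison. With 2 mice a stage, a member that did not pass is not thereby shown to be unchanged. In the luminal layer 38 members were tested, and edgeR called 0 higher and 1 lower, against 5.25% and 3.29% of 12948 genes, while 6 had an unadjusted p under 0.05. That member was Aurka, which fell from 11.5 and 15.7 CPM to 4.03 and 5.22 CPM (-1.54, SE 0.26, edgeR adjusted p = 0.0176), a call lost without NP2. It was lower in hormone-sensing progenitors (8.88 and 13.9 to 4.61 and 4.76 CPM, -1.24, SE 0.34) and in differentiated hormone-sensing cells (15.4 and 18.6 to 11.0 and 7.41 CPM, -1.04, SE 0.22). Both of these calls were lost without NP2, and the first also in DESeq2 and without cells of high UMI count.

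In luminal progenitors 29 members were tested, with 1 higher and 1 lower, against 26.9% of genes called in either direction. The median log2 fold change was 0.46 over the members and -0.02 over all genes. Over the members it was -0.01 in hormone-sensing progenitors and -0.41 in differentiated hormone-sensing cells, against -0.02 over all genes in each. Cenpf went from 0.302 and 1.66 CPM to 3.98 and 4.86 CPM (2.38, SE 0.60), and Mcm3 from 9.96 and 6.62 CPM to 3.18 and 4.61 CPM (-1.02, SE 0.35). DESeq2 made neither call, and both were lost without NP1, that of Cenpf also without PI2 and that of Mcm3 without PI1 and without cells of high UMI count. In hormone-sensing progenitors 1 of 23 was higher and 2 were lower, against 9.58% and 7.05% of genes, with Cdk1 at 2.19 (SE 0.65) and Prc1 at -1.52 (SE 0.46) beside Aurka. The calls of Cdk1 and Prc1 were lost in DESeq2, with the replicate block, without NP1, without NP2 and without PI1 (Cdk1) or PI2 (Prc1). Of 26 members in differentiated hormone-sensing cells none was higher and 2 were lower, against 7.64% and 6.65%, namely Aurka and Ube2c (-3.03, SE 0.83), the latter lost without NP2 and without cells of high UMI count. The shares of PI1, in dioestrus, and PI2, in oestrus, were 2.27% and 0.908% over the luminal layer, and cycle phase and mouse cannot be told apart. The make-up of the layer differed as well, since C7, the cluster with the higher share, was 824 of 1410 luminal cells in PI1 and 1101 of 4074 in PI2. In basal cells of PI mice (28 and 59 cells) 10 members could be tested and none passed in edgeR, against 4.74% and 2.69% of genes, with 2 at an unadjusted p under 0.05. DESeq2 called none of 40, with none at an unadjusted p under 0.05.

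Other genes of the pathway came from lists that share no gene with the members. Among 49 further division genes, 47 rose and none fell in the luminal layer from NP to G (median 3.84), against 33.8% of all genes called in each direction. In the basal layer 34 of 41 rose and 1 fell, against 24.3% and 21.9% of all genes. Of 27 regulators of G1 and inhibitors of cyclin-dependent kinases, 21 rose and 5 fell in luminal cells, against the same 33.8% of all genes in each direction. Those that rose include E2f8 (4.90), Foxm1 (4.57), which drives mitotic genes, E2f1 (4.48) and Ccnd1 or cyclin D1 (1.58). Those that fell include the inhibitors Cdkn1a, from 256.1 and 186.8 CPM to 43.5 and 55.7 CPM (-2.08), and Cdkn2b (-1.74). In basal cells, by contrast, Cdkn1a rose (1.28), and Cdkn1c, the inhibitor p57, went from 7.05 and 6.37 CPM to 164.7 and 144.5 CPM (4.59). Of 7 hormone targets linked to division, the RANK ligand Tnfsf11 (2.39), the alveolar factor Elf5 (4.90), Igf2 (5.26) and Id2 (2.42) rose in luminal cells, Areg (-6.40) and Wnt4 (-2.32) fell, and Calca (0.70) did not pass. The luminal sums went from mostly hormone-sensing cells in NP mice to mostly C8 in G mice. Within differentiated hormone-sensing cells (C5 against C4) Wnt4 was higher, at 292.1 and 259.3 CPM against 114.1 and 132.9 CPM (0.89, SE 0.21), as were Calca (6.57), Tnfsf11 (8.02), Igf2 (10.81) and Id2 (1.98), whereas Areg was lower (-1.58) and Elf5 did not pass (1.65).

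Within C8, division-positive cells were set against the other cells of the same mice, without the 40 members, as these chose the cells. Since the cells were chosen by their transcripts in the same libraries, counts of calls are given without p-values. Genes that vary with the members from cell to cell are higher by this choice, so the counts only describe the split. Of 11864 genes, 18.4% were called higher and 17.3% lower. All 49 further division genes were higher (median 2.14), such as Hmmr, a spindle protein, at 109.1 and 103.7 CPM against 8.49 and 8.71 CPM. Of the 27 G1 regulators, 16 were higher and Btg1 and Myc were lower. Foxm1 was at 14.2 and 12.2 CPM in division-positive cells and at 1.51 and 2.03 CPM in the others (2.84, SE 0.21), and E2f8 (2.50) and the inhibitor Cdkn2d (1.74) were higher as well.

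All 8 milk proteins were lower in the division-positive cells of C8, with a median of -0.41. Lalba (α-lactalbumin) was at 17 and 10.6 CPM against 46.4 and 25.2 CPM (-1.46, SE 0.10), and Wap (whey acidic protein) at 291.0 and 63.9 CPM against 588.4 and 126.2 CPM (-1.09, SE 0.05). The most abundant ones hardly differed, with Csn2 at -0.15 and Csn1s1 at -0.13, and scaled by library totals 7 of 8 were called and Csn1s1 was not. The keratins Krt8, Krt18 and Krt19 (-0.40, -0.54 and -0.45) and Tnfsf11 (-1.82) were lower, and Id2 was higher (0.33). The progenitor markers Aldh1a3, Cd14 and Kit (-0.62, -0.48 and -0.30) and the targets Areg (-0.70), Calca (-0.94), Elf5 (-0.21) and Igf2 (-0.62) were lower too. Of 3 endothelial markers tested, Cdh5 and Eng were called higher, at 1.40 CPM or less in every sum, whereas no immune, basal, fibroblast or pericyte marker tested was called. The 2 groups also differed in depth. Division-positive cells had median UMI counts of 13238 and 11634.5 against 8837 and 6952, or 1.5 and 1.67 times as many, and the share of such cells went from 25.7% and 23.7% in the lowest of 4 equal classes of C8 cells by UMI count to 70.9% and 74.7% in the highest, although all were thinned to the same number. Its part in these differences was not tested.

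When C8 cells were ranked by milk protein UMIs, the share of division-positive cells was 48.3%, 56.0%, 58.4% and 42.6% from the lowest to the highest of 4 equal classes in G1, and 46.2%, 56.7%, 52.2% and 40.8% in G2. The middle classes were thus above the outer ones in both mice. Milk proteins take up part of the 2000 UMIs, and when thinning was done without them the shares were 52.3%, 58.9%, 61.5% and 46.2%, and 47.3%, 56.5%, 50.4% and 42.1%. In the class richest in milk protein transcripts the exact 95% intervals were 38.15 to 47.18% in G1 and 36.19 to 45.43% in G2.

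**Figure D5:**
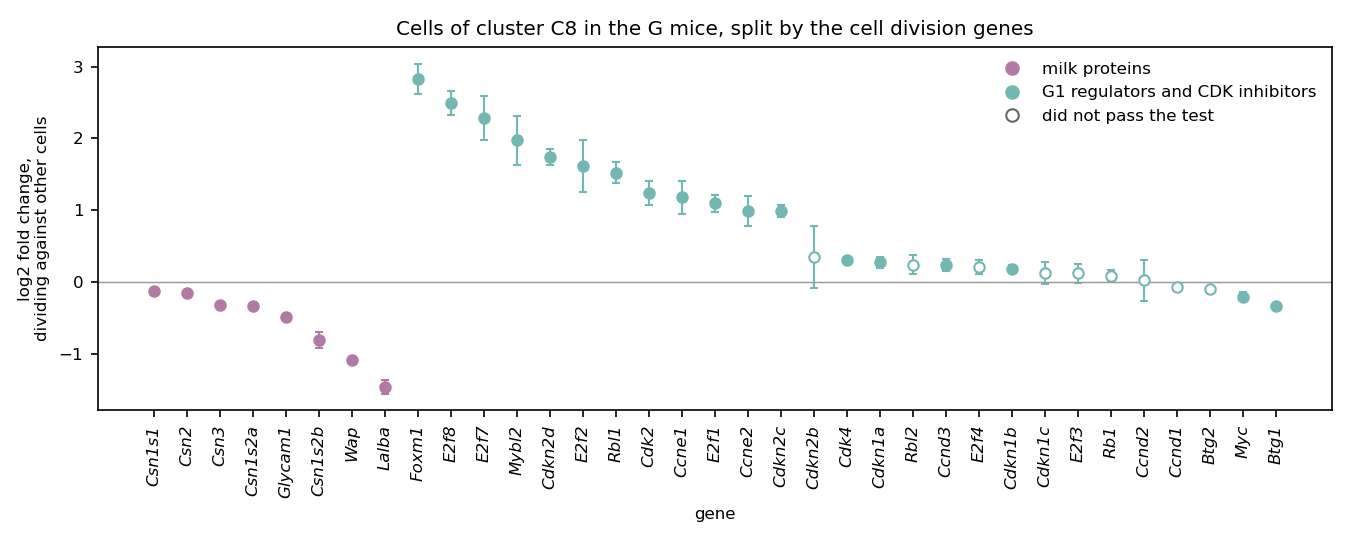
Log2 fold change (y axis, bars of 1 SE) of the 8 milk proteins and 27 G1 regulators and CDK inhibitors (x axis) between division-positive and other cells of C8, from sums of the 2 G mice. All 8 milk proteins lie below 0, from Csn1s1 at -0.13 to Lalba at -1.46, and Foxm1 lies highest at 2.84, with open symbols for genes that did not pass the test.

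The same split in other clusters rests on fewer cells, and its counts are likewise descriptions. In C10, with 50 and 68 division-positive cells, 2.56% of 7103 genes were higher and 1.03% lower, and 34 of 41 further division genes were higher. Aldh1a3, a luminal progenitor marker, was lower at 294.2 and 375.5 CPM against 530.4 and 581.6 CPM (-0.84), as were Igf2 (-2.80) and the progesterone target Calca (-2.05). The milk proteins Csn1s1 (0.61) and Csn3 (0.59) were higher there. In the basal cluster C13, with 83 and 64 such cells, 7.45% of 9417 genes were higher and 4.77% lower, with 43 of 44 further division genes higher (median 3.68). Krt14 (-0.41) and Acta2 (-0.25) were lower, and so was Ccnd2 (-0.41). Depth hardly differed in C13, with median UMI counts of 5726 and 6317.5 against 6265.5 and 6058.5. The immune marker Lyz2 was at 193.7 CPM in the division-positive cells of G1 against 15.8 CPM in the others, but at 13.7 against 38.6 CPM in G2. The fibroblast markers Col1a1 (-1.99), Col1a2 (-1.10) and Dcn (-0.40) and the pericyte marker Rgs5 (-1.96) were lower in the division-positive cells. In C7 of PI mice, with 27 and 26 such cells, 2.56% and 2.23% of 10104 genes were higher and lower, 36 of 39 further division genes were higher, and Csn2 was higher (0.62) and Lalba lower (-0.83).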

How the data were processed

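Mammary cells of 8 mice were profiled with 10x Chromium 3′ libraries. The authors aligned the reads to mm10 (STAR is named in the submitters' notes) and deposited raw UMI counts per gene and cell, with a table of filters, clusters and, per cell, the mitochondrial share as a fraction. Cells that passed every deposited filter were kept, the doublet cluster C20 was left out, and no further doublet caller was run. The combined matrix was not used.

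Counts were summed per mouse and cluster, or per mouse and layer (at least 20 cells), and tested with edgeR 4.0.16 (R 4.3.3) by the quasi-likelihood test with TMM scaling, filterByExpr and Benjamini-Hochberg adjustment over all genes at 0.05. In every comparison, a gene near 0 in 1 group passes the filter through the other group and can hardly be called in the opposite direction. CPM values use the total of each sum. Each mouse is 1 replicate. The interaction and the split of clusters had the mouse as a term. Intervals are exact (Clopper-Pearson), and a count of 0 was set to 3 for bounds. Named genes were, per comparison, up to 10 members with the largest rise and fall past the test, plus the member of highest mean CPM of each role. The members and lists were chosen with earlier results of these data known. Scripts were tested on simulated data. Alternatives were DESeq2 1.42.0, library totals, no filter, no high-UMI cells, a replicate block, leaving out each mouse and other settings of thinning. Replicate numbers did not pair the mice, since with 2 mice a stage the labels name no shared litter, batch or day, and correlations of their deviations lay between -0.08 and 0.22. Python 3.11.15, numpy 2.4.6, scipy 1.17.1, pandas 2.3.3 and matplotlib 3.10.9 were used.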

Additional observations from a re-analysis of the deposited data

Results flagged for a closer look

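The change from NP to G differed between the layers for 25 members by the interaction test. The luminal change exceeded the basal one by 4.36 for Birc5, 3.74 for Mcm5, 3.74 for Rrm2, 3.55 for Uhrf1, 3.35 for Mcm7, 3.07 for Pbk, 2.92 for Rrm1, 2.91 for Ccnb1, 2.67 for Dut, 2.62 for Mcm3 and 1.88 for Pcna, all as differences of log2 fold changes. Pcna moved in opposite directions in the 2 layers, and both moves passed the test across all genes in edgeR.

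Division-positive cells were also found outside the epithelium, in clusters that no comparison used, above the background of 0.618% and 0.413% in C4 of NP mice. In C16, seen with at least 20 cells in G1 only, 20 of 22 cells were division-positive (90.91%, exact 95% interval 70.84 to 98.88%). In the immune cluster C17 the shares were 35.0% in G1 and 20.93% in G2, and 17.9% and 10.4% in L1 and L2. In the endothelial cluster C19 they were 21.21% in G1 and 32.53% in G2, and 8.28% and 7.84% in L1 and L2. The 40 members summed to 4495 CPM in C16, above all other sums.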

How the results depend on the processing

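The main counts moved little: members called ranged over the alternatives from 39 to 40 in luminal cells from NP to G, from 37 to 40 from G to L, from 28 to 36 and 34 to 35 in the same basal comparisons, and from 25 to 26 in the interaction. DESeq2 called 22 of the 38 lower in C11 against C10. The small counts of PI against NP depended on the setting. The share of all genes called under each alternative is not given, so these counts cannot be set against it. In luminal cells (1 call) no filter gave 4, the replicate block 4 and leaving out a mouse 0 to 8. In luminal progenitors (2 calls) DESeq2 gave 0, no filter 8, the block 4, no high-UMI cells 5 and leaving out a mouse 0 to 15. In hormone-sensing progenitors (3 calls) DESeq2 gave 0, the block 1, no high-UMI cells 1 and leaving out a mouse 0 to 3. In differentiated hormone-sensing cells (2 calls) no filter gave 8, the block 7 and leaving out a mouse 0 to 7. For C5 against C4 (16 calls) no high-UMI cells gave 8 and leaving out a mouse 1 to 24. There, 8 members with no UMI in C5 of G1 turned to fitted log2 fold changes below 0 without G2, which are no bounds: over all left-out mice Ccnb2 ranged from -6.81 to 3.87, Cdc20 from -7.19 to 3.5, Cdk1 from -6.75 to 4.30, Cenpe from -6.51 to 6.05, Nusap1 from -6.43 to 4.44, Prc1 from -8.03 to 4.01, Tk1 from -7.29 to 3.17 and Top2a from -7.42 to 6.20. The block kept 40, 39, 36 and 35 calls in the main luminal and basal comparisons, 40, 37 and 36 in C10 against C6, C11 against C10 and C9 against C8, and gave 12 for C5 against C4. The split of C7 (484 calls) gave 255 with 5 or more members per cell, 206 with thinning that leaves out milk proteins and 185 without high-UMI cells. Its calls scaled by library totals were higher in 81.0% against 53.5%, and likewise 71.8% against 51.6% in C8, 87.3% against 71.4% in C10 and 76.6% against 61.0% in C13. No mouse could be left out of the split, which then has no residual degrees of freedom. Shares of division-positive cells depend on the definition. The mean of C10 (55.08%) was 34.35% with 1000 UMIs, 85.95% unthinned, 63.6% with 2 or more members, 36.33% with 5 or more, 37.78% with G2 and mitosis members alone, 22.45% with S phase members alone, 56.86% with another seed, 53.1% without high-UMI cells and 52.92% with thinning without milk proteins. For C8 (50.15%) these were 34.48%, 76.3%, 60.92%, 35.89%, 38.23% and 15.52%, then 45.13% without high-UMI cells and 51.89% without milk proteins. For C13 (13.29%) they were 9.27%, 34.84%, 20.88%, 9.26% and, for S phase alone, 3.12%. For C7 (2.82%) they were 1.51%, 16.44%, 7.26%, 1.14%, 1.56% and 0.803%. C8 and C10 lay above C13 in all of these. Thinning without milk proteins was chosen after seeing the data. Of single members, 161 values over all alternatives lost their call, 2717 kept their side of the threshold and 8 reversed. Where not stated, the cause of a change was not tested.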

Other observations

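Among the 33 epithelial sums, the members least like the rest peaked in different places. Cdk6 was highest in the few C6 cells of PI1 (85.7 CPM, 22 cells) and was at 52.8 and 66.7 CPM in the pericyte-like cluster C15 of L mice. Aurka was highest in C5 of G2 (31 CPM), where it rests on 8 UMIs. Outside C8, C10 and C13, Pcna was highest in the basal cells of NP2 (54 CPM).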
